A study of Mus musculus with 9 samples.

Results

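The 84 genes described here encode the nuclear subunits of the mitochondrial respiratory chain and ATP synthase, measured by RNA sequencing in mouse muscle and kidney. They were chosen by symbol, from all 24421 gene symbols of the deposited tables: Nduf followed by a, b, c, s or v and a digit, the 4 Sdh subunit genes, every Uqcr gene, Cox4 to Cox8 and every Atp5 gene, without pseudogenes. By symbol, 37 belong to complex I, 4 to complex II, 8 to complex III, 18 to complex IV and 17 to complex V. A symbol is not always a subunit: Ndufa4 is known as a component of complex IV despite its name, Ndufa4l2 is its paralogue, Cox7a2l is known for joining complexes III and IV, and Atp5s is a coupling factor. No mitochondrially encoded subunit is in the tables, so the nuclear side alone was measured.

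The respiratory chain passes electrons from NADH at complex I and from succinate at complex II to complex III and then, through cytochrome c, to oxygen at complex IV. Complexes I, III and IV pump protons across the inner mitochondrial membrane, and ATP synthase, complex V, uses the gradient to make ATP. Several small subunits of complex IV exist as gene pairs, with 1 form found mainly in heart and skeletal muscle and the other in most other tissues, and both tissues studied here are rich in mitochondria.

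The study compared mice labelled as tumour bearing, wild type or beta-arrestin knockout, given MDC, DKK1 or PBS. DKK1 is a secreted antagonist of Wnt signalling, beta-arrestins are adaptors of receptor endocytosis, and the labels do not spell out MDC. Muscle gave 7 libraries: 1 of tumour MDC, 1 of tumour PBS, 1 of knockout DKK1, 1 of knockout PBS, 1 of wild type DKK1 and 2 of wild type PBS. Kidney gave 1 library of tumour PBS and 1 of wild type PBS. Strain, age, tumour type, muscle, dose and time are not stated in the labels, nor is which beta-arrestin was deleted. The levels of the 2 beta-arrestin genes do not show which was targeted: Arrb1 stood at 28.2 and 20.5 CPM in the libraries labelled knockout DKK1 and knockout PBS, against 18.8 ± 2.12 CPM in wild type PBS (SD, n = 2), and Arrb2 at 7.98 and 9.61 CPM, against 7.72 ± 0.186 CPM, so neither was below wild type. The labels do not say that the libraries came from separate animals, so p-values measure the spread between these libraries, and every group other than wild type PBS muscle has no replicate check.

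The tables held 44421797 and 42480786 counts in kidney and 21358854 to 32607835 in muscle, of which the respiratory chain genes took 2.13% to 3.20%. Skeletal muscle markers summed to 61073 to 103319 RPKM (reads scaled to gene length and library size) in muscle and to 104 and 140 RPKM in kidney. The names of the tables carry a letter that the labels do not explain: A for both kidney libraries, B for tumour MDC, tumour PBS and wild type PBS library 1 of muscle, and C for the other 4 muscle libraries. The letter and the tissue cannot be told apart, and the wild type pair is split between B and C. Slow fibre markers differed widely between muscle libraries, from 12.98 RPKM in wild type library 1 to 3937 RPKM in the library labelled knockout DKK1.

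Most of the genes were read in depth. Cox7b2 had no read in any library, and Cox8c had 1 read, in tumour PBS muscle. The other 82 passed the filter on low counts in muscle, in kidney and over both tissues. Among them, Cox6b2 had only 1 to 23 reads per muscle library, and Cox4i2 14 and 43 reads in tumour and wild type kidney. Summed by complex on the RPKM scale, complex I genes reached 6798 and 5917 RPKM in tumour and wild type kidney and 7517 to 11398 RPKM in muscle, with a median of 10042 over the 7 muscle libraries. Complex V genes summed to 7101 and 6717 RPKM in tumour and wild type kidney and to 7431 to 10190 in muscle, and complex IV genes to 6404 and 4815 RPKM in kidney and 4921 to 8544 in muscle. Complex III genes summed to 3449 and 3009 RPKM in kidney and 3235 to 5269 in muscle. The 4 complex II genes had the lowest sum in every library, at 1179 and 1296 RPKM in kidney and 897 to 1440 in muscle. The other sums cover 8 to 37 genes each, so this order does not rank levels per gene. Complex II had the only sum in which both kidney libraries lay above the muscle median, of 1031. Atp5b, the catalytic beta subunit of ATP synthase, stood at 1482 and 1630 RPKM in kidney and at 940 to 2197 in muscle.

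Kidney and muscle used different genes for the same complex IV subunits. Cox6a2, the heart and skeletal muscle form of subunit 6a, made up 89.8% to 97.0% of the Cox6a RPKM in muscle and 0.264% and 0.356% in tumour and wild type kidney, where Cox6a1 made up the rest. Cox8b made up 69.1% to 92.1% of the Cox8 RPKM in muscle and 0.756% and 0.443% in kidney. Cox7a1, the muscle form of subunit 7a, made up 65.5% to 80.1% of its pair in muscle and 12.2% and 10.8% in kidney. The genes lie on different chromosomes or far apart: on GRCm38, Cox6a2 is at chr7:128205435-128206387, Cox6a1 at chr5:115345642-115348981, Cox7a1 at chr7:30184144-30186078, Cox7a2 at chr9:79755361-79759878, Cox8b at chr7:140898945-140900446 and Cox8a at chr19:7215153-7217616 in the GENCODE annotation.

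The windows of 250 bases before the start of the Cox8 and Cox7a genes are shown because the partners of these pairs differ in the tissue that uses them. Sequences are from RefSeq, build GRCm38.p6, on the strand of the gene, with each CpG dinucleotide in capitals. Cox8b is chr7:140900447-140900696 on the minus strand, Cox8a is chr19:7217617-7217866 on the minus strand, Cox7a1 is chr7:30183921-30184170 on the plus strand and Cox7a2 is chr9:79759854-79760103 on the minus strand.
Cox8b: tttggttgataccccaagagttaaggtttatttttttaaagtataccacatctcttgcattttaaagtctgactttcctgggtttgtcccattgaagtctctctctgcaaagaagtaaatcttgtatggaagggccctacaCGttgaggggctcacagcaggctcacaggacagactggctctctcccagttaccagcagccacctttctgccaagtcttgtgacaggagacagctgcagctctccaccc
Cox8a: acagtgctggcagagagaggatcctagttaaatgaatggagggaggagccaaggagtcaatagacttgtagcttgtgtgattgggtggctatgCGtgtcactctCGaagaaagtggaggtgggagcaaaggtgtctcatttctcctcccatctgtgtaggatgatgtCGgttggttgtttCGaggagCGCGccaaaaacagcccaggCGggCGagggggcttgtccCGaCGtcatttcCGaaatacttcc
Cox7a1: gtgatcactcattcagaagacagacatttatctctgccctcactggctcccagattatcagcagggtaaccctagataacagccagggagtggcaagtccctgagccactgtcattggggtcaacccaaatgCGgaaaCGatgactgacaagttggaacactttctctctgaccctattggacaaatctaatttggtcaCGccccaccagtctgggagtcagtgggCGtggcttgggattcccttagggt
Cox7a2: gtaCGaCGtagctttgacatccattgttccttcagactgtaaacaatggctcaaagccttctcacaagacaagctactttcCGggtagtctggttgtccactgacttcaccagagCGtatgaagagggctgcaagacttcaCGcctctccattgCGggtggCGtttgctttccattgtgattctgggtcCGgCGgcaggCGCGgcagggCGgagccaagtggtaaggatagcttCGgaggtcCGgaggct
The window of Cox8b holds 1 CpG and that of Cox8a 11. The window of Cox7a1 holds 4 CpGs and that of Cox7a2 holds 14. Of the 84 genes, 66 had such a window by symbol, with a median of 14 CpGs (range 1 to 35), against a median of 6 (0 to 56) over 27018 windows of all genes, and Cox8b had the fewest. The ETS core CCGGAA, read on both strands, was in 28.8% of the 66 windows and in 12.2% of all windows, and the NRF1 core TGCGCA in 19.7% and 6.67%. The E-box CANNTG was in 62.1% and 66.1%, and the ERR half-site AGGTCA in 16.7% and 13.8%. A match is a description of letters, not a binding site, and no test was made on these shares. The ETS and NRF1 cores each contain a CpG, and the E-box and ERR half-site need none. The part of CpG content in the shares was not tested.

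On the RPKM scale, Cox6a2 stood at 2.70 and 2.89 in tumour and wild type kidney, against a lowest value of 697, a median of 953 and a highest of 1718 in muscle. Its partner Cox6a1 stood at 1020.3 and 809 RPKM in kidney, against 32.4, 54.2 and 108 RPKM as lowest, median and highest in muscle. No kidney library overlapped the muscle range for either gene, and the order was opposite. Cox8b stood at 9.98 and 3.57 RPKM in kidney, against 256, 381 and 976 in muscle, and Cox8a at 1311 and 802 RPKM in kidney, against 56.0, 83.4 and 144 in muscle. Cox7a1 stood at 34.6 and 20.8 RPKM in kidney, against 312, 392 and 583 in muscle. Cox7a2, its widely used partner, stood at 249 and 171 RPKM in kidney and at 108 to 181 in muscle, and here the ranges overlapped.

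**Figure D1:**
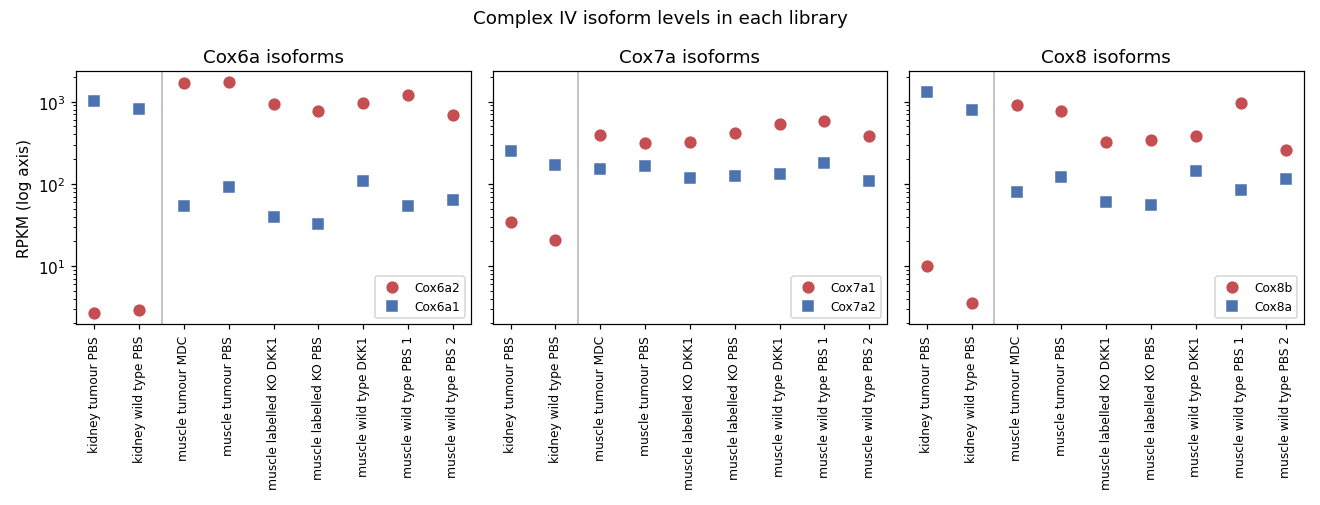
RPKM (log axis) of 3 pairs of complex IV isoform genes in each of the 9 libraries, 1 point per library, with kidney left of the vertical line and muscle right of it. Cox6a2 and Cox8b (red) lie far below Cox6a1 and Cox8a (blue) in both kidney libraries and above them in all 7 muscle libraries, while Cox7a2 lies near 100 to 250 RPKM in both tissues.

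The tissue difference was tested with edgeR's quasi-likelihood method over all 9 libraries, with tissue and condition as terms. Only wild type PBS (1 kidney and 2 muscle libraries) and tumour PBS (1 and 1) inform the tissue difference in this fit. The other conditions have no kidney library, although their muscle libraries are part of the RPKM ranges. The p-values were adjusted over 16116 genes by the Benjamini-Hochberg method. Of the 82 genes, 2 were called higher in kidney, Cox6a1 and Cox8a, where the same rule called 18.3% of all genes, and 16 were called lower, where it called 13.4%. Cox6a1 was higher by 3.12 on the log2 scale (SE 0.27, edgeR adjusted p = 0.00154) and Cox8a by 2.67 (SE 0.29, adjusted p = 0.00278). Cox6a2 had a log2 difference of -9.35 (SE 0.74, adjusted p = 0.00135), Cox8b of -7.50 (SE 1.08, adjusted p = 0.00639) and Cox7a1 of -4.49 (SE 0.64, adjusted p = 0.00617). These 5 calls held in all 10 alternative settings and fits. Skeletal muscle markers were above 0 in both kidney libraries, and the part of such RNA in the kidney values of Cox6a2 and Cox8b was not tested. In bulk tissue, fewer cells of a type and less RNA per cell cannot be told apart.

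Other isoforms differed less. Cox4i1, the common form of subunit 4, made up over 99% of its pair in every library, at 789 and 750 RPKM in kidney and 537 to 906 RPKM in muscle. Cox4i2, the form known from lung, stood at 0.434 and 1.39 RPKM in tumour and wild type kidney and at 1.27 to 7.15 in muscle, a log2 difference of -2.83 (adjusted p = 0.047, edgeR). Cox6b2, the testis form of subunit 6b, stood at 12.1 and 3.24 RPKM in kidney and at 0.0619 to 1.23 in muscle, with a log2 difference of 2.61 that missed the threshold (edgeR adjusted p = 0.156). The c subunit of the ATP synthase ring is encoded by 3 genes for the same mature protein. Atp5g1 gave 17.3% and 12.9% of their RPKM in kidney and 25.4% to 35.5% in muscle, and was lower in kidney by log2 -1.90 (edgeR adjusted p = 0.0203), whereas Atp5g3 gave 62.4% and 70.8% in kidney and 44.6% to 54.3% in muscle (log2 -0.51, adjusted p = 0.349).

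Beyond the isoforms, 78 of the 82 log2 differences were negative, with a median of -1.14, against 0.06 over all 16116 genes. All 37 complex I genes were negative (median -1.25) and 9 were called lower, among them Ndufc1 with a log2 difference of -2.37 (edgeR adjusted p = 0.0367), Ndufs7, which carries an iron-sulfur cluster (-1.93, adjusted p = 0.0268), and Ndufv2, also an iron-sulfur subunit (-1.49, adjusted p = 0.0343). Ndufa4l2 was among them, at -2.39 (adjusted p = 0.0471). The 8 complex III genes had a median of -1.05 and none was called. Of the 17 complex V genes, 2 were called lower, Atp5g1 and Atp5o, the stalk subunit (-1.39, adjusted p = 0.0484). Complex II stood at a median of -0.16 with none of 4 called. Sdha, its flavoprotein, had 232 and 293 RPKM in kidney and 124 to 363 in muscle. Sdhd, a membrane anchor, had 320 and 344 RPKM in kidney, above its muscle range of 192 to 288 on this scale. In the fit the log2 difference of Sdhd was below 0, and on total counts it was 0.54.

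Other core subunits showed log2 differences that missed the threshold. Sdhc, a membrane anchor of complex II, had 333 and 360 RPKM in kidney and 222 to 329 in muscle, so both kidney values were above the muscle range on this scale, while its log2 difference in the fit was -0.31 (adjusted p = 0.533). Sdhb, the iron-sulfur subunit of complex II, had 295 and 299 RPKM in kidney and 269 to 459 in muscle, and Uqcrfs1, the Rieske iron-sulfur protein of complex III, 477 and 499 RPKM in kidney and 432 to 781 in muscle, both overlapping. The same held for Uqcrc2, a core protein of complex III, with 268 and 247 RPKM in kidney and 188 to 433 in muscle, and for Atp5a1, the alpha subunit of ATP synthase, with 881 and 949 RPKM in kidney and 579 to 1296 in muscle. Ndufa4 had 737 and 498 RPKM in kidney and 699 to 1056 in muscle (log2 -1.20, adjusted p = 0.0935), and Cox6b1, the common form of subunit 6b, 437 and 377 RPKM in kidney and 318 to 619 in muscle. Cox7a2l, at 146 and 149 RPKM in kidney, lay above its muscle range of 106 to 138 on this scale. Its log2 difference in the fit was below 0, and 0.25 on total counts.

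The size of the general difference depended on scaling and on the libraries. Without TMM scaling, on total counts, the median of all genes moved to 0.59 and that of the 82 genes to -0.54, so the gap between them was -1.14, against -1.20 in the scaled fit. Without wild type muscle library 1, 20 genes were called lower, without wild type muscle library 2 there were 63, and with the wild type PBS libraries alone there were 3, Cox6a2, Cox8b and Cox7a1. Gene length moved with the difference: genes under 1 kb had a median log2 difference of -1.28 among the 55 respiratory chain genes of that length and -0.47 among all 1426, and genes of 1 to 2 kb had -0.72 among 22 and -0.08 among all 3650. The part of length in the difference was not tested.

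**Figure D2:**
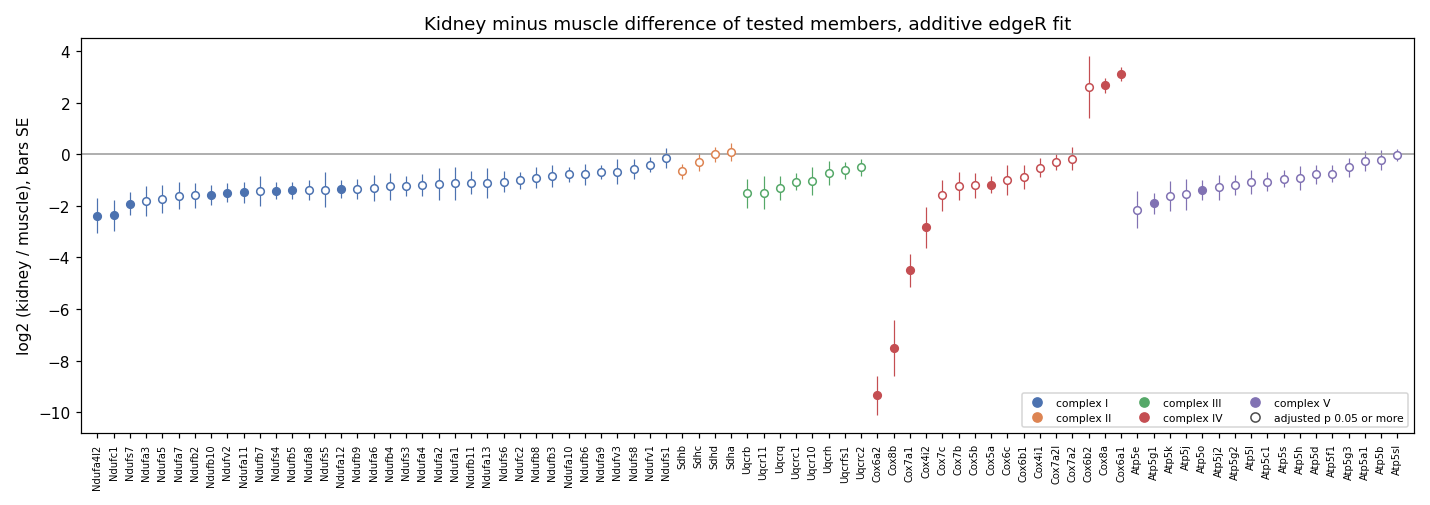
Log2 difference of kidney minus muscle for the genes tested, all but 1, grouped by complex, from the additive edgeR fit over 9 libraries, with bars showing the SE and filled points showing adjusted p under 0.05. The 4 points above 0 are Cox6a1, Cox8a, Cox6b2 and Sdha, and the 3 lowest are Cox6a2, Cox8b and Cox7a1.

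Neighbouring pathways were read from lists of known genes. The tissue test called 18.3% of all genes higher in kidney and 13.4% lower. Of 24 electron carrier, ATP export and coupling genes tested, 4 were called higher in kidney and 7 lower. Slc25a4, the muscle ADP/ATP carrier, named after its values were seen as the counterpart of Slc25a5, was lower by log2 -3.92 (edgeR adjusted p = 0.0066) and Slc25a5, its widely expressed relative, was higher by 3.83 (adjusted p = 0.00287). Ckmt2, the mitochondrial creatine kinase of muscle, was lower by log2 -8.82 (adjusted p = 0.00229), and Ckmt1, its counterpart elsewhere, was higher by 10.37 (adjusted p = 0.0017). Among 18 TCA cycle genes 1 was called higher, Suclg2 (2.64, adjusted p = 0.00261), and 5 lower, among them Idh3a (-2.34, adjusted p = 0.0119) and citrate synthase, Cs (-2.07, adjusted p = 0.0161). Of 16 complex I assembly genes 2 were called, both lower, and of 35 assembly genes of the other complexes 5 were, all lower. Of 57 mitochondrial ribosome genes, 8 were called lower and 1 higher, and of 27 regulators of mitochondrial biogenesis 4 lower, among them Mef2c (-5.96, adjusted p = 0.00106), and 1 higher. For lower calls, both assembly lists, the mitochondrial ribosome and the regulators lay near the share of all genes. Among 35 cytosolic ribosomal protein genes 1 was called, higher.

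In kidney, 1 tumour PBS library was set against 1 wild type PBS library, to ask how the chain differed in kidneys of tumour-bearing mice. With 1 library per group there was no test. Values are log2 ratios of TMM-scaled CPM (counts scaled to library size) with a prior count of 2, and intervals are exact 95% binomial intervals that cover counting error only. The median over the 82 genes was 0.16, with 52 above 0 and 30 below, against 0.00 over all 15986 genes. By a size rule of 2-fold and 100 counts in the higher library, 2 genes were higher in tumour kidney, where 4.59% of all genes were, and 1 was lower, where 3.25% of all genes were. Cox6b2 stood at 7.47 CPM in tumour kidney and 2.01 CPM in wild type kidney, a ratio of 3.66 (2.92 to 4.78). Cox8b stood at 3.61 and 1.30 CPM, a ratio of 2.72 (2.03 to 3.85). Both are minor isoforms in this tissue. Ndufa4l2, known as a target of hypoxia signalling, stood at 1.93 CPM in tumour kidney and 4.47 CPM in wild type kidney, a ratio of 0.438 (0.331 to 0.560).

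The major genes moved less, and by complex. Complex IV had a median log2 change of 0.39 with 13 of 16 genes above 0. Cox7b, a small structural subunit, stood at 261 CPM in tumour kidney and 152 CPM in wild type kidney, a ratio of 1.72 (1.67 to 1.78), Cox8a at 712 and 439 CPM (1.62, 1.59 to 1.65), and Cox5b at 349 and 219 CPM (1.60, 1.56 to 1.64). Ndufb4 of complex I stood at 221 and 124 CPM (1.78, 1.72 to 1.84) and Atp5g1 of complex V at 198 and 117 CPM (1.69, 1.63 to 1.75). Catalytic and core subunits went both ways. Higher in tumour kidney, like Cox5b, were Cox5a (ratio 1.12, 1.09 to 1.15) and Uqcrc2 (1.08, 1.06 to 1.10), while others lay on the other side. Ndufs1, the largest complex I iron-sulfur subunit, stood at 251 CPM in tumour kidney and 363 CPM in wild type kidney, a ratio of 0.690 (0.673 to 0.707). Ndufv1, which binds NADH, stood at 249 and 351 CPM (0.710, 0.693 to 0.728), and Sdha at 660 and 841 CPM (0.785, 0.773 to 0.797). All 4 complex II genes were below 0, with a median of -0.12. Complex III had a median of 0.23, with 6 of 8 above 0, complex I of 0.12, with 23 of 37, and complex V of 0.14, with 10 of 17.

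Gene length moved with the change in kidney. The 55 genes under 1 kb had a median log2 change of 0.25 with 43 above 0, the 22 of 1 to 2 kb had -0.04 with 8 above 0, and the 5 over 2 kb had -0.35 with 1 above 0, while all genes of these lengths had medians of 0.03, -0.05 and 0.01. Cell type markers also differed between the kidneys: the 8 proximal tubule markers summed to 6967 RPKM in tumour kidney and 42495 in wild type kidney, the 4 collecting duct markers to 912 and 442 RPKM, the 7 adipocyte markers to 920 and 136 RPKM, the 5 erythroid markers to 1421 and 334 RPKM and the 7 neutrophil markers to 33.3 and 1.51 RPKM. Their part in the changes was not tested. Among other lists, no TCA cycle gene of 18 passed the size rule (11 above 0), nor any of 16 complex I assembly genes (4 above 0). Ppargc1b, a coactivator of mitochondrial genes, was lower by log2 -1.66 and Esrrb, an orphan nuclear receptor, higher by 1.32, the 2 of 27 biogenesis regulators past the rule. The uncoupling proteins Ucp2 (1.05) and Ucp3 (1.53) were the 2 of 24 carrier and coupling genes past it. Of 35 assembly genes of complexes II to V, 1 passed, Sdhaf1, lower by log2 -1.01, and 33 of 35 cytosolic ribosomal protein genes were above 0, with 1 past the rule. Mitochondrial ribosome genes had a median of -0.09, with 1 of 57 past the rule, higher.

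**Figure D3:**
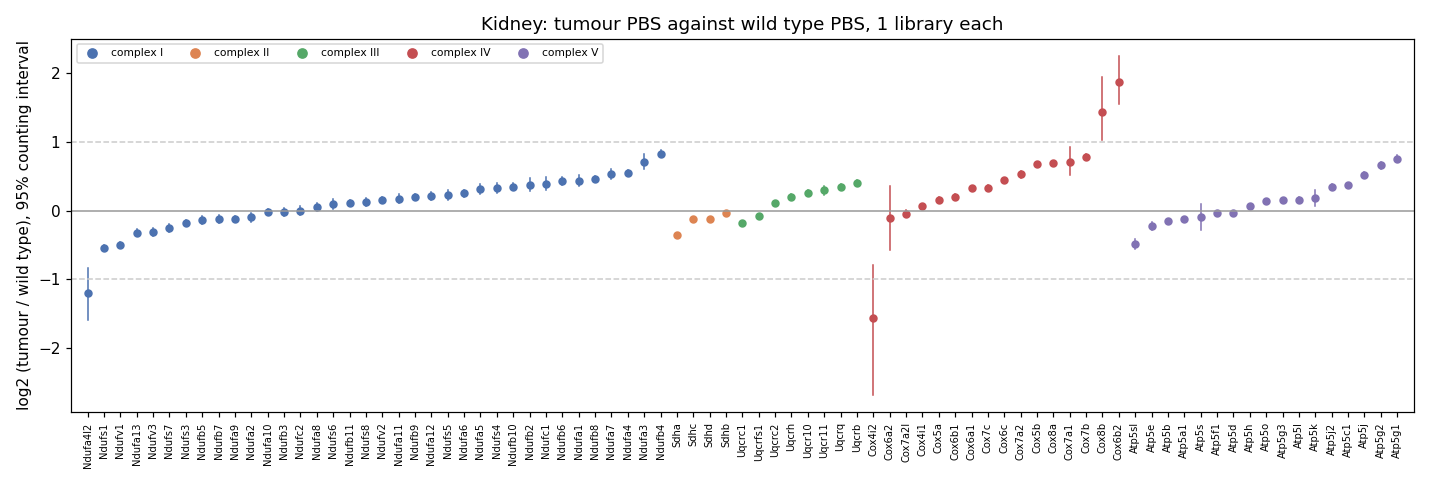
Log2 ratio of tumour PBS over wild type PBS in kidney for the genes tested, all but 1, grouped by complex, 1 library per group, with vertical bars for the 95% counting interval and dashed lines at 2-fold. Cox6b2 and Cox8b lie above the upper line, Ndufa4l2 and Cox4i2 below the lower one, and Cox4i2 had too few counts to pass the size rule.

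In muscle, the first question was how much the genes differ between libraries of the same label. Wild type PBS library 2 was lower than library 1 for 72 of the 82 genes, with a median log2 difference of -0.999, against 0.03 over all 15482 genes tested (-0.55, against 0.47, on total counts). By the size rule 40 were lower, where 8.4% of all genes were, and 1 was higher, Ndufa4l2, where 9.89% of all genes were. Cox8b stood at 86.6 CPM in library 2 and 451 CPM in library 1, and Atp5e, the small epsilon subunit of ATP synthase, at 152 and 697 CPM. Of the 5 genes over 2 kb, 3 were higher in library 2 and 2 lower, with Ndufa11, an accessory subunit of complex I, at a log2 difference of -0.99. Among the 3, Ndufs1 stood at 392 CPM in library 2 and 209 CPM in library 1, and Sdha at 714 and 458 CPM. The median was -1.19 for the 55 respiratory chain genes under 1 kb, -0.36 for 22 of 1 to 2 kb and 0.35 for 5 over 2 kb. All genes of these lengths had medians of -0.81, -0.30 and 0.19, and over the 82 genes Pearson's r between the log2 difference and log2 length was 0.679, a description over genes that share 2 libraries.

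The same split ran through the table letters, a comparison chosen after the values were seen. In 54 of the 82 genes (65.9%) all 3 libraries lettered B lay above all 4 lettered C, where 17.6% of all genes did, and in 4 all lay below, where 15% of all genes did. The 4 were Ndufs1, Sdha, Atp5a1 and Atp5b, core or catalytic subunits encoded by longer genes. Sdha stood at 415 CPM in tumour MDC, 418 in tumour PBS and 458 in wild type library 1, and at 811, 840, 809 and 714 CPM in the libraries labelled knockout DKK1, knockout PBS, wild type DKK1 and wild type library 2. By complex, 28 of 37 complex I genes lay above, 5 of 8 of complex III, 10 of 16 of complex IV, 10 of 17 of complex V and 1 of 4 of complex II. Of the 55 respiratory chain genes under 1 kb, 44 (80%) lay above, against 47% of all genes of that length. Since each group lies wholly under 1 letter, its label and its letter are confounded in a comparison with the other letter, so values are given against each wild type library by itself.

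**Figure D4:**
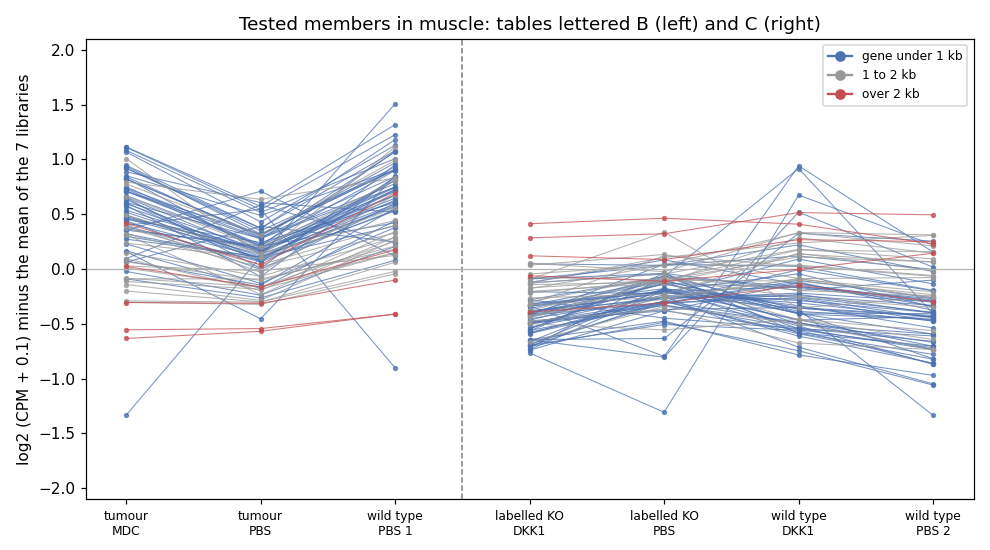
Log2 (CPM + 0.1) of each of the 82 genes minus its own mean over the 7 muscle libraries, 1 line per gene, coloured by gene length, with tables lettered B left of the dashed line and C right of it. Most genes under 1 kb lie above 0 in the B libraries and below 0 in the C libraries, and 4 genes, 3 of them over 2 kb, run the other way.

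No respiratory chain gene was called in any of the 7 muscle comparisons by edgeR's quasi-likelihood test at an adjusted p under 0.05, and none reached an unadjusted p under 0.05. The test called 0% of the 15482 genes in each, with 38 to 231 at an unadjusted p under 0.05. DESeq2 called 0 to 19 genes and limma-voom 0, with none of the 82 among them. The spread in these tests comes from the wild type pair alone, with 1 residual degree of freedom, and the values in muscle describe libraries. That pair is split between letters B and C, so its spread cannot be told apart from a difference between the letters. Comparisons inside 1 letter are judged against the same spread, and the absence of calls does not show that levels were equal.

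The tumour PBS comparison asks how muscle of tumour-bearing mice differs. Tumour PBS was lower than wild type library 1 for 77 of the 82 genes, with a median log2 change of -0.50, and higher than wild type library 2 for 61, with a median of 0.50. By the size rule, 1 was higher than library 1, Ndufa4l2 (6.13% of all genes), and 1 lower, Cox7a1 (1.65%). Against library 2, 15 were higher (6% of all genes) and 1 lower, Ndufs1 (5.32%). None passed it against both wild type libraries, where 0.956% of all genes were higher and 0.297% lower. On total counts the median against library 1 moved to -0.09 and that of all genes to 0.40, and the gap between them stayed at -0.49, against -0.50 with TMM. Among the libraries lettered B, tumour PBS was the lowest of 3 for 74 of 82 genes, where it was the lowest for 34.1% of all genes. In all, 21 of the 82 genes were lower than both wild type libraries and 5 were higher than both. Of all 15482 genes, 3755 were lower than both and 3877 higher, so the lower count lay near the share of all genes. Cox7a1 stood at 110 CPM in tumour PBS, against 271 and 131 CPM in wild type libraries 1 and 2, below both. Uqcrc1, a core protein of complex III, had log2 changes of -0.55 and -0.43 against the same 2 libraries, and Atp5b of -0.28 and -0.63. All 4 complex II genes had negative mean changes, with a median of -0.17. The 5 higher than both were Ndufa4l2 (16.8 CPM, against 6.09 and 12.8) and 4 complex IV genes, Cox6a2 (1086 CPM, against 1023 and 428), Cox6a1 (46.8, against 36.8 and 31.5), Cox8a (63.8, against 57.8 and 58.1) and Cox4i2 (4.15, against 2.72 and 2.92).

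Of 18 TCA cycle genes, 17 had a negative mean change in tumour PBS muscle, with a median log2 change of -0.37 (-0.36 and -0.27 against wild type libraries 1 and 2), and none passed the size rule. Cs had -0.60 and -0.47 against them and Dlst, a subunit of the oxoglutarate dehydrogenase complex, -0.40 and -0.91. Of 23 carrier and coupling genes 21 had a negative mean change (median -0.27, and -0.41 and -0.19 against libraries 1 and 2). Of 27 biogenesis regulators 16 did (median -0.16, and -0.01 and -0.12, with Ppargc1b at -0.57 and -1.52). So did 11 of 16 complex I assembly genes and 18 of 35 other assembly genes, but their direction turned with the library. Their medians were -0.32 and -0.30 against library 1, and 0.11 and 0.10 against library 2. The 57 mitochondrial ribosome genes had medians of -0.30 and 0.59 against libraries 1 and 2, and the 35 cytosolic ribosomal protein genes 0.20 and 1.62. Neutrophil markers summed to 610 RPKM in tumour PBS muscle, against 19.6 and 1.16 RPKM in the wild type libraries, and all 7 passed the size rule. Erythroid markers summed to 1683 RPKM, against 332 and 405, with 3 of 5 past the rule. Fast fibre markers summed to 101644 RPKM, against 157127 and 64521. Their part in the values was not tested.

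Tumour MDC and tumour PBS share a letter. Tumour MDC was higher for 75 of the 82 genes, with a median log2 change of 0.34, against 0.00 over all genes, and none passed the size rule, which 0.833% of all genes passed upward and 2.29% downward. All 8 complex III genes (median 0.49) and all 17 complex V genes (median 0.32) were higher, as were 35 of 37 of complex I (median 0.36), 12 of 16 of complex IV (median 0.33) and 3 of 4 of complex II (median 0.07). Ndufa13 stood at 371 CPM in tumour MDC and 200.4 CPM in tumour PBS, Atp5l at a log2 change of 0.67, Uqcr11 at 291 and 187 CPM and Cox7a1 at 168 and 110 CPM. None of the 4 complex IV genes that were lower is a muscle isoform. Cox6a1 stood at 33.3 CPM in tumour MDC and 46.8 in tumour PBS, Cox8a at 50.9 and 63.8 and Cox4i2 at 3.22 and 4.15. Cox6b2, at 0.0447 and 0.294 CPM, had 1 read in tumour MDC and 10 in tumour PBS, too few to read a change. The long genes Sdha (415 and 418 CPM) and Ndufs1 (179 and 188 CPM) had log2 changes of -0.01 and -0.07, and the median was 0.40 for genes under 1 kb, 0.17 for those of 1 to 2 kb and 0.01 for the 5 over 2 kb, against 0.15, 0.02 and -0.03 over all genes of these lengths.

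On total counts without TMM scaling the median of all genes in this comparison moved to -0.28 and that of the 82 genes to 0.05, so that 49 lay above 0 but 74 still lay above the median of all genes. Skeletal muscle and fast fibre markers were all above 0 as well, with median log2 changes of 0.47 and 0.48, and all 9 slow fibre markers passed the size rule upward, with a median of 2.62. Neutrophil markers summed to 59.8 RPKM in tumour MDC and 610 in tumour PBS, and adipocyte markers to 541 and 1034 RPKM. Of 18 TCA cycle genes 16 were above 0 (median 0.12), and of 57 mitochondrial ribosome genes 48 (median 0.21), 13 of 23 carrier and coupling genes (Ucp3 passed the rule, at -1.06) and 15 of 27 biogenesis regulators. The part of muscle fibre content in the change was not tested. Against wild type PBS, tumour MDC was lower than library 1 for 72 of the 82 genes (median -0.15) and higher than library 2 for 65 (median 0.79). By the size rule 1 was higher than library 1 (2.34% of all genes) and 0 lower (1.47%), and 34 were higher than library 2 (8%) and 1 lower (8.07%). None passed against both, where 0.504% of all genes were higher and 0.465% lower.

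DKK1 in wild type mice gave opposite medians against the 2 wild type libraries. Wild type DKK1 was higher than wild type library 2, of its own letter, for 76 of the 82 genes, with a median log2 change of 0.13, and lower than library 1 for 67, with a median of -0.83. By the size rule 32 were lower than library 1 (9.18% of all genes) and 1 higher (14.9%), and none was higher (2.27%) or lower (0.801%) than library 2. None passed the size rule against both, where 1.73% of all genes were higher and 0.181% lower. Ndufa4l2 stood at 22.1 CPM in wild type DKK1, against 6.09 and 12.8 CPM in wild type libraries 1 and 2, and Cox6a1 at 44.7 CPM, against 36.8 and 31.5, above both. Ndufs5, a small complex I subunit, stood at 82.2 CPM, against 200 and 42.0 CPM, between them. On total counts all 82 genes lay above wild type library 2, since the median of all genes moved to 0.26 there, and the median over the mean of both libraries turned to 0.13, against 0.48 for all genes. Fast fibre markers were below both wild type libraries for 9 of 10 genes in wild type DKK1, with a sum of 63673 RPKM, against 157127 and 64521 RPKM in libraries 1 and 2, and skeletal muscle markers for 7 of 10. All 5 endothelial markers were above both, with a sum of 227 RPKM, against 45.0 and 103 RPKM, and slow fibre markers summed to 741 RPKM, against 12.98 and 470 RPKM. Their part in the values was not tested. TCA cycle genes were split, with 8 of 18 above 0 and a median of -0.04 over the mean of both libraries.

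The library labelled knockout PBS was likewise below wild type library 1 for 75 of the 82 genes (median log2 change -0.86) and above library 2 for 59 (median 0.19). By the size rule 27 were lower than library 1 (4.91% of all genes) and 0 higher (5.26%), and 1, Ndufs5, was higher than library 2 (2.18%) and 0 lower (4.65%). None passed against both, where 0.523% of all genes were higher and 0.433% lower. Genes below both wild type libraries included Cox6a1, Cox8a, Cox4i2 and Cox4i1 of complex IV. Cox6a1 stood at 17.8 CPM, against 36.8 and 31.5 CPM in wild type libraries 1 and 2, Cox8a at 31.4 CPM, against 57.8 and 58.1, and Cox4i2 at 0.949 CPM, against 2.72 and 2.92. Cox4i1 stood at 440 CPM, against 787 and 471. Sdha, at 840 CPM, was above both (458 and 714). Adipocyte markers summed to 233 RPKM in this library, against 319 and 1043 in the wild type libraries, and their part in these values was not tested.

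The library labelled knockout DKK1 was lower than the library labelled knockout PBS for 71 of the 82 genes, with a median log2 change of -0.17, against -0.01 over all genes. None passed the size rule, which 1.52% of all genes passed upward and 0.478% downward. All 8 complex III genes (median -0.21) and all 4 of complex II (median -0.06) were lower, as were 34 of 37 of complex I. Uqcrb stood at 187 CPM in the library labelled knockout DKK1 and 269 in that labelled knockout PBS, and Cox7a1 at 112 and 155 CPM. On total counts the median of all genes moved to 0.11 and that of the 82 genes to -0.04, with 49 below 0. Fast fibre markers were all below 0 here (median -0.41), and all 9 slow fibre markers passed the size rule upward, with a median of 5.97. Of 18 TCA cycle genes 15 were below 0 and 1 passed the rule, Idh2, at 1.48.

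Against wild type DKK1, of the same letter, the library labelled knockout DKK1 was lower for 63 of the 82 genes, with a median log2 change of -0.15, against -0.02 over all genes. By the size rule 3 were lower, where 7.46% of all genes were, and none higher, where 1.99% were. Cox6a1 stood at 19.9 CPM in the library labelled knockout DKK1 and 44.7 in wild type DKK1, Ndufa4l2 at 9.07 and 22.1 CPM and Cox4i2 at 1.43 and 4.04 CPM. Cox8a, at 31.1 and 61.1 CPM, was just outside 2-fold, and Cox6a2, at 588 and 489 CPM, was higher. Adipocyte markers summed to 222 and 1049 RPKM in the same 2 libraries, with 6 of 7 past the size rule downward, and endothelial markers to 62.5 and 227 RPKM, with all 5 past it downward. Slow fibre markers summed to 3937 and 741 RPKM, with all 9 past it upward. The part of these markers in the values was not tested. The effect of DKK1 in the libraries labelled knockout minus that in wild type, a contrast added after the values were seen, had a median of 0.24 over the 82 genes and 0.03 over all genes. edgeR called 0 of 15482 genes for it, 44 at an unadjusted p under 0.05, with none of the 82 among them, and no other tool was run.

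**Figure D5:**
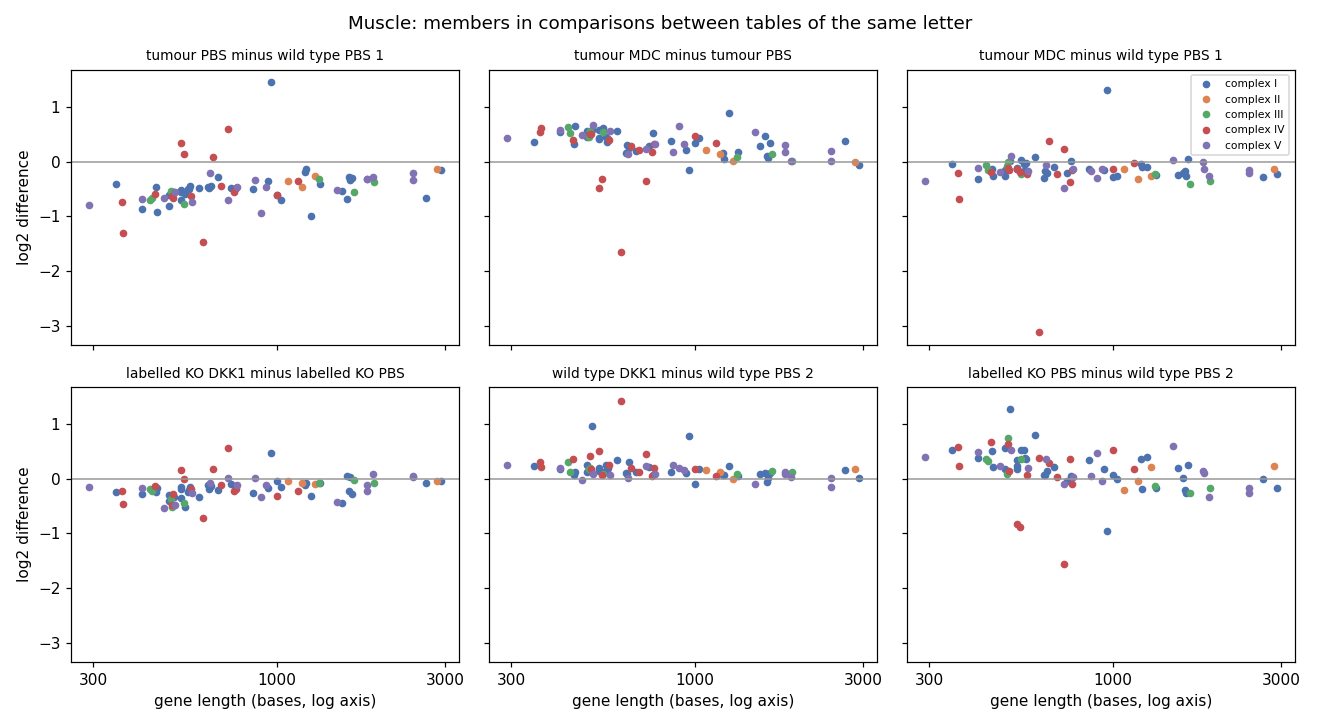
Log2 difference of each of the 82 genes against gene length (log axis) in 6 comparisons between muscle tables of the same letter, coloured by complex, 1 library on each side. Tumour PBS lies below wild type library 1 at nearly all lengths, tumour MDC lies above tumour PBS mainly for shorter genes, and the lowest points in the plot of the library labelled knockout PBS are Cox4i2, Ndufa4l2, Cox8a and Cox6a1.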

How the data were processed

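Read counts per gene symbol were used as deposited. The authors did not normalise these counts, and the deposited tables also give RPKM, set by the authors from those counts and a gene length. RPKM recomputed from counts and lengths was within 5e-04% of the deposited values. Reads were aligned with HISAT2 2.1.0 to mm10, per the submitters' processing notes. For the counter, the annotation, strandedness and multiply mapped reads, details were not given in the sources used here. By GENCODE on GRCm38, 21 of the 84 genes share exon sequence with another gene of the tables, such as Cox6a2 with Itgad and Ndufa4l2 with Shmt2, and reads from such pairs cannot be told apart without strand. Near-identical copies and processed pseudogenes, which many of these genes have, may have taken or given reads.

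Counts were scaled with TMM in edgeR 4.0.16 (limma 3.58.1, R 4.3.3), filtered with filterByExpr at a minimum count of 10, and expressed as CPM, or log2 CPM after adding a prior count of 2. Muscle CPM and kidney CPM were scaled within tissue, so levels across tissues are RPKM. In muscle, edgeR's quasi-likelihood test had 1 coefficient per group over 7 libraries (1 residual and 15.2 prior degrees of freedom), and changes against wild type PBS are means over both libraries unless each is given. The tissue fit had tissue and condition as terms over 9 libraries (2 residual degrees of freedom). Its SE was derived from the test, as the absolute log2 difference divided by the square root of the F statistic. Benjamini-Hochberg adjustment was over all genes tested, with a threshold of 0.05. The size rule was 2-fold and 100 counts in the higher library, met against both libraries where a group was set against wild type PBS. Fits were tested on simulated data. Alternatives were DESeq2 1.42.0 and its size factors, limma-voom, total counts, no filter, other fold and prior settings, leaving out 4 abundant RNAs or a wild type library and, for tissue, other terms.

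Genes named were the isoform genes, the core subunits and, per complex and comparison, those with the highest and lowest changes among genes with 100 counts. The values of 1 gene of complex I, which stays in all counts and medians, are not reported here. The genes and lists were chosen with earlier results of these data known. Intervals cover counting error only: 3 counts, the limit that a count of 0 allows, are 0.0675 to 0.140 CPM.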

Additional observations from a re-analysis of the deposited data

Results flagged for a closer look

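A pair of genes moved in opposite directions in tumour PBS kidney and tumour PBS muscle, each against wild type PBS. Cox7a1 had a log2 change of 0.72 in kidney and of -0.78 in muscle, where tumour PBS was below both wild type libraries. Ndufa4l2 had -1.19 in kidney and 0.92 in muscle, where tumour PBS was above both wild type libraries. The difference between tissues was not tested. In kidney Cox7a1 stood at 12.6 and 7.66 CPM and Ndufa4l2 at 1.93 and 4.47 CPM in tumour and wild type.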

How the results depend on the processing

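No paired analysis was possible because only the wild type PBS muscle libraries carry numbers, and no other group shares them. For kidney against muscle, 5107 genes were called, against 8309 with tissue as the only term and 2640 with the wild type PBS libraries alone. Members called lower numbered 16, against 6 on total counts, 44 with tissue alone, 44 with DESeq2, 26 with limma-voom, 3 with the wild type PBS libraries alone and 20 to 63 leaving out 1 wild type muscle library. Uncalled log2 differences near 0 turned sign. On total counts they were 0.24 (Atp5a1), 0.28 (Atp5b), 0.0432 (Atp5g3), 0.0296 (Cox4i1), 0.40 (Cox7a2), 0.25 (Cox7a2l), 0.33 (Ndufs1), 0.12 (Ndufv1), 0.25 (Sdhc), 0.54 (Sdhd), 0.0111 (Uqcrc2) and 0.50 (Atp5sl). With tissue alone Cox7a2 was 0.0401 and Sdha -0.28, and Sdha was -0.0178 with the wild type PBS libraries alone. Sdhd was 0.0066 with DESeq2 and with its size factors. Leaving out 1 wild type muscle library gave ranges of -0.41 to 0.21 (Cox7a2), -0.0562 to 0.25 (Sdha), -0.0899 to 0.0558 (Sdhd) and -0.35 to 0.0851 (Ndufs1).

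In muscle, DESeq2 called 12 genes in tumour PBS, 11 in tumour MDC, 4 in wild type DKK1 and 19 in the library labelled knockout PBS, each against wild type PBS, and 6 in the library labelled knockout DKK1 against wild type DKK1. On total counts edgeR called 5 in tumour PBS and 1 in labelled knockout PBS. With the other wild type library left out and the filter and scaling repeated, so that counts can differ from those against each library in the full scaling, members past the size rule numbered 2 to 16 in tumour PBS, 1 to 35 in tumour MDC, 0 to 32 in wild type DKK1 and 1 to 26 in labelled knockout PBS. At 1.5-fold, 11 members passed in kidney, 7 in tumour MDC against tumour PBS, 2 in labelled knockout PBS and 1 in wild type DKK1, where 1 also passed on total counts. The member median ranged over the settings from -0.50 to 0.50 in tumour PBS, -0.18 to 0.78 in tumour MDC, -0.77 to 0.13 in wild type DKK1 and -0.84 to 0.19 in labelled knockout PBS, all against wild type PBS. The cause was not tested. Where a group has 1 library, depth is not the limit: the spread between libraries was not measured.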
